A study of Mus musculus with 4 samples.

Results

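The genes described here are 10 ligands of the transforming growth factor beta (TGF-beta) family, taken by gene symbol from 55382 Ensembl genes with ribosome profiling values in mouse hearts. They are Gdf15, Tgfb1, Tgfb2, Tgfb3, Inhba, Inhbb, Mstn, Gdf11, Bmp4 and Bmp10, each present as 1 gene. Ribosome profiling sequences the mRNA fragments that ribosomes protect from nuclease. The study compared 2 libraries from NAT10-CKO hearts (conditional knockout of Nat10, KO below) with 2 libraries from NAT10-FF hearts (the control, WT in the titles, WT below), all from mice killed on day 15 after birth. Nat10 encodes an RNA acetyltransferase. About 100 mg of tissue was used per library, and ribosomes were held on the mRNA with cycloheximide at 100 µg/mL. Cardiomyocytes are the labelled cell type, although the protocol describes pieces of heart tissue. The labels do not state which promoter drives Cre, which exons are floxed or the sex of the mice. The labels do not say that the 2 libraries of a group came from separate animals, so the p-values may rest on technical spread alone.

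Ligands of this family are made as longer precursors, cut by proteases and secreted as dimers. TGF-betas, activins, myostatin and GDF11 act mainly through SMAD2 and SMAD3, whereas bone morphogenetic proteins (BMPs) act mainly through SMAD1, SMAD5 and SMAD8. GDF15 is a distant member that circulates as a stress hormone and acts in the hindbrain through GFRAL with RET as co-receptor. In the heart, TGF-betas are known for matrix production by fibroblasts, BMP10 for the growth of embryonic heart muscle and, after birth, as a product of the atria.

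The footprint level used here is the authors' FPKM (fragments scaled for gene length and library size), the translation efficiency (TE) is the authors' ratio of footprints to RNA, and the implied RNA level is the first divided by the second, also in FPKM. Changes are given as log2(KO/WT) with their standard error (SE), for the footprint level after adding 1 FPKM. Adjusted p-values are from limma with Benjamini-Hochberg adjustment over all genes tested, with 0.05 as the threshold and n = 2 libraries per group. Each library had footprints on 16425 to 16900 genes, and summed FPKM lay between 7.04e+06 and 8.73e+06. Mitochondrial tRNA genes took 57.0% and 48.9% of the summed FPKM in KO libraries, against 56.0% and 55.3% in WT libraries. The read depth is unknown. Nat10 itself had footprint levels of 40.01 and 52.1 FPKM in KO hearts, against 77.3 and 73.9 FPKM in WT hearts, a log2 change of -0.71 (SE 0.30, adjusted p = 0.295), and both KO libraries were below both WT libraries. The median log2 change of all genes was 0.36 for footprints, 0.22 for RNA and 0.15 for TE. After median-ratio scaling these medians were 0.030, 0.0043 and -0.00069, so each change below is to be read against them.

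The promoters of the 3 ligand genes with the largest RNA changes, Gdf15, Inhba and Tgfb2, are shown because these genes rose by the most among the ligands in RNA. Each window runs 5′ to 3′ on the gene's strand, 250 bases before to 50 bases after an annotated start, from RefSeq (GRCm38.p6). Capitals mark matches, on either strand, to the TATA box TATAAA, the CCAAT box CCAAT and the SMAD element CAGACA. Gdf15 has 2 annotated starts on the minus strand, with windows chr8:70632407-70632706 (upstream) and chr8:70632046-70632345 (downstream). The Inhba window is chr13:16011601-16011900 on the plus strand and the Tgfb2 window is chr1:186705940-186706239 on the minus strand. Both windows lie inside the annotated gene spans, whose 5′ ends are at 16004256 for Inhba and 186709697 for Tgfb2. The starts shown for these genes are therefore not their outermost ones.
Gdf15, upstream start: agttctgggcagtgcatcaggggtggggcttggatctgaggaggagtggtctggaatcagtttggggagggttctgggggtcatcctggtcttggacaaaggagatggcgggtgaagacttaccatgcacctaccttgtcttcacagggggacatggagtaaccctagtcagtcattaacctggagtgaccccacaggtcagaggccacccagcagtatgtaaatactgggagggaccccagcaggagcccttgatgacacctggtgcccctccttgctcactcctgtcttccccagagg
Gdf15, downstream start: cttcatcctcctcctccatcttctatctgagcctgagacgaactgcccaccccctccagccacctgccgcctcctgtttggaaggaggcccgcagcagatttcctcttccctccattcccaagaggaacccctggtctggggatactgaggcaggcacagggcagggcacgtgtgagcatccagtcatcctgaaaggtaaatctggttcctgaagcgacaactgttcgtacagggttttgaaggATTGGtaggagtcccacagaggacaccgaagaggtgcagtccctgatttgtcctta
Inhba: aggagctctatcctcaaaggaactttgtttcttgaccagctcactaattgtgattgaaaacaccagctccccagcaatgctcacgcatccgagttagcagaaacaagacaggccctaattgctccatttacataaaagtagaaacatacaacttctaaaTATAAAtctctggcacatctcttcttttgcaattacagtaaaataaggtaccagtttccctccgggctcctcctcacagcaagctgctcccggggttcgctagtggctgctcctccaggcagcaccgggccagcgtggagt
Tgfb2: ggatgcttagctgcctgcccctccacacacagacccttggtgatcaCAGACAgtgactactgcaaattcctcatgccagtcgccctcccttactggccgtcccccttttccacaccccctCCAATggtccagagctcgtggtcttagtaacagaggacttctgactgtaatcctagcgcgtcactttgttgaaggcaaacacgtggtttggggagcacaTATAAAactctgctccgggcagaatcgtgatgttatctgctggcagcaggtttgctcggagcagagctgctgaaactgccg

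The upstream Gdf15 window held none of the motifs searched, and the downstream window held 1 CCAAT match on the opposite strand at -6 from the start. Inhba had a TATAAA match at -91. Tgfb2 had matches to TATAAA at -31, CCAAT at -130 and CAGACA at -204. These are matches of letters, and whether they act in these promoters was not tested. Over 32851 mouse promoters, 13.6% held TATAAA, 37.4% CCAAT and 21.0% CAGACA. The same search covered TGATGNAA, bound by ATF4 with CHOP (3.97% of promoters), the cyclic AMP element TGACGTCA (1.79%), GGCGCC, bound by BMP SMADs (11.9%), the AP-1 element TGANTCA (7.81%), the GC box GGGCGG (35.7%) and the p53 half-site (8.36%). No window of Gdf15, Inhba or Tgfb2 held any of these, which says only that those letters are not in these windows. Windows were listed for 9 of the 10 ligand genes, and not for Tgfb3.

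The footprint level was higher in both KO libraries than in both WT libraries for 8 of the 10 ligand genes, and 1, Gdf15, passed the test. Over all 15031 genes tested, 39.5% showed that separation, 0.253% passed as higher in KO and 0.126% as lower. The median log2 footprint change of the ligand genes was 1.57, beside 0.36 for all genes. Without Mstn, which the filter on low values let through by its KO libraries alone, 7 of 9 were separated and the median was 1.56. In RNA, 5 of the 8 ligand genes tested rose (Gdf15, Inhba, Tgfb2, Bmp4 and Tgfb3), and all 8 had both KO libraries above both WT libraries. Over all 12529 genes tested for RNA, 44.2% were separated in that way, 4.2% passed as higher and 1.53% as lower. Their median log2 RNA change was 1.5, beside 0.22 for all genes. With another scaling between libraries (median ratio), the genes called in RNA split into 327 higher and 309 lower, against 526 higher and 192 lower as deposited, and 3 of the ligand genes were called (Gdf15, Inhba and Tgfb2). No ligand gene passed in TE, where 0% of all genes passed as higher and 0% as lower.

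**Figure D1:**
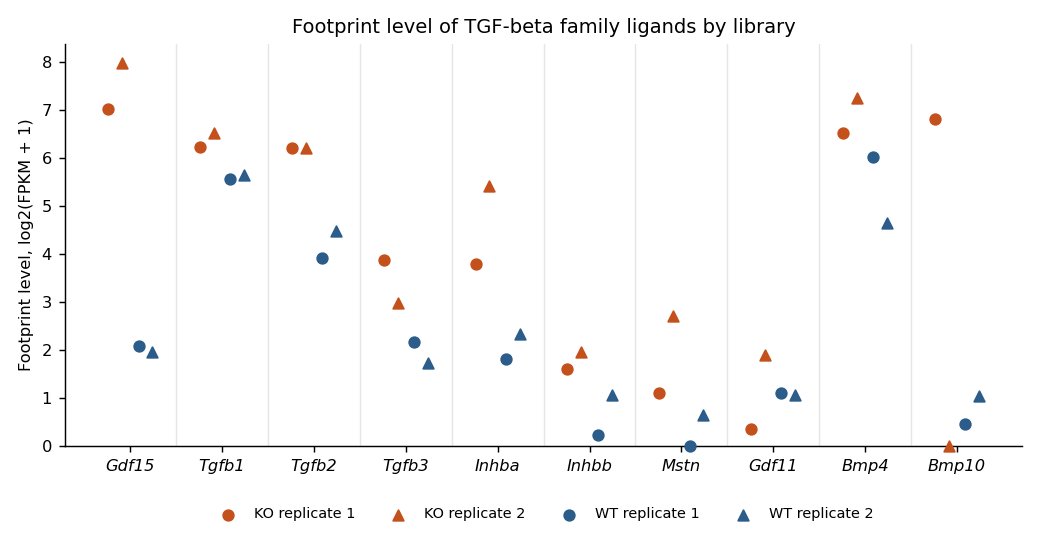
Footprint level, log2(FPKM + 1), of each ligand gene in each library, with KO libraries (orange) left of WT libraries (blue) and the shape giving the replicate number. The Gdf15 points of KO hearts (129 and 251 FPKM) lie far above those of WT hearts (3.23 and 2.90 FPKM), and Bmp10 is high in 1 KO library alone.

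Gdf15 (chromosome 8, 70629393 to 70632470, GRCm38.p6) had footprint levels of 129 and 251 FPKM in KO hearts, against 3.23 and 2.90 FPKM in WT hearts. The groups were far apart, and the mean was 190 ± 85.7 FPKM in KO and 3.07 ± 0.24 FPKM in WT (SD, n = 2 each). The log2 change was 5.48 (SE 0.45, 44.6-fold, adjusted p = 0.014), rank 31 of 15031 genes by the log2 change. With any 1 library left out, no gene passed in footprints, and the log2 change of Gdf15 was between 5.0 and 5.95 with adjusted p between 0.299 and 0.666. The level of its implied RNA was 148 and 39.1 FPKM in KO hearts, against 0.335 and 1.38 FPKM in WT hearts. That RNA change was 6.80 on the log2 scale (SE 0.80, 112-fold, adjusted p = 0.0195), rank 2 of 12529 genes, and it passed whichever library was left out (log2 change 5.78 to 7.82). The TE of Gdf15 was 0.876 and 6.40 in KO hearts, against 9.64 and 2.09 in WT hearts. The groups overlapped in TE, with a log2 change of -0.92 (SE 1.10, adjusted p = 0.929). Gdf15 was the most abundant of the 10 ligands in KO hearts by footprints, where its range overlapped that of Bmp4, and the fifth in WT hearts.

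The TGF-beta isoforms are secreted in latent complexes and signal through TGFBR1 and TGFBR2. Tgfb2 (chromosome 1, 186622787 to 186709697) had footprint levels of 72.7 and 73.4 FPKM in KO hearts, against 14.1 and 21.4 FPKM in WT hearts. The groups did not overlap, but the log2 change of 2.01 (SE 0.36, 4.03-fold) had an adjusted p of 0.123. Its implied RNA level rose, with 39.2 and 26.3 FPKM in KO hearts against 4.33 and 5.70 FPKM in WT hearts (log2 change 2.69, SE 0.28, 6.46-fold, adjusted p = 0.016). Tgfb2 was the 1 ligand gene whose TE was lower in both KO libraries than in both WT libraries, at 1.85 and 2.79 in KO hearts and 3.25 and 3.75 in WT hearts. That difference did not pass (log2 change -0.62, SE 0.51, adjusted p = 0.884), and 12% of all genes showed the same separation.

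Tgfb1 (chromosome 7, 25687002 to 25705077), first of the 10 ligands by mean footprint level in WT hearts with a range inside that of Bmp4, had footprint levels of 73.6 and 90.5 FPKM in KO hearts, against 46.1 and 49.3 FPKM in WT hearts. Both KO libraries were above both WT libraries, with a log2 change of 0.76 (SE 0.29, adjusted p = 0.270). In implied RNA it stood at 31.3 and 23.6 FPKM in KO hearts, against 14.5 and 16.4 FPKM in WT hearts, and did not pass (log2 change 0.82, SE 0.23, adjusted p = 0.084). Tgfb3 (chromosome 12, 86056743 to 86079041) had footprint levels of 13.7 and 6.92 FPKM in KO hearts, against 3.48 and 2.32 FPKM in WT hearts (adjusted p = 0.276). Its implied RNA level rose, at 16.2 and 14.4 FPKM in KO hearts and 6.83 and 7.65 FPKM in WT hearts (log2 change 1.08, SE 0.22, 2.11-fold, adjusted p = 0.046). The Tgfb3 call was lost without KO replicate 1 (adjusted p = 0.056), without WT replicate 1 (0.221) and without WT replicate 2 (0.082).

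Inhba and Inhbb encode the beta subunits of activin A and activin B, which signal through activin receptors. Inhba (chromosome 13, 16004256 to 16031609) had footprint levels of 12.8 and 41.6 FPKM in KO hearts, against 2.51 and 4.04 FPKM in WT hearts. The groups did not overlap, and the log2 change was 2.53 (SE 0.68, 5.78-fold, adjusted p = 0.190). Leaving out KO replicate 1 gave 3.34, and leaving out KO replicate 2 gave 1.72. In RNA, Inhba rose, with 9.02 and 3.42 FPKM in KO hearts against 0.425 and 0.767 FPKM in WT hearts (log2 change 3.28, SE 0.54, 9.72-fold, adjusted p = 0.032), rank 42 of 12529. The RNA change passed whichever library was left out, at 2.58 without KO replicate 1 and 3.98 without KO replicate 2. Inhbb (chromosome 1, 119415463 to 119422248) was low, with footprint levels of 2.06 and 2.87 FPKM in KO hearts and 0.177 and 1.09 FPKM in WT hearts (adjusted p = 0.359). In implied RNA it stood at 2.60 and 1.33 FPKM in KO hearts, against 0.556 and 0.681 FPKM in WT hearts (log2 change 1.60, SE 0.45, adjusted p = 0.084), so both activin subunit genes had higher RNA in each KO library and Inhba alone passed.

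**Figure D2:**
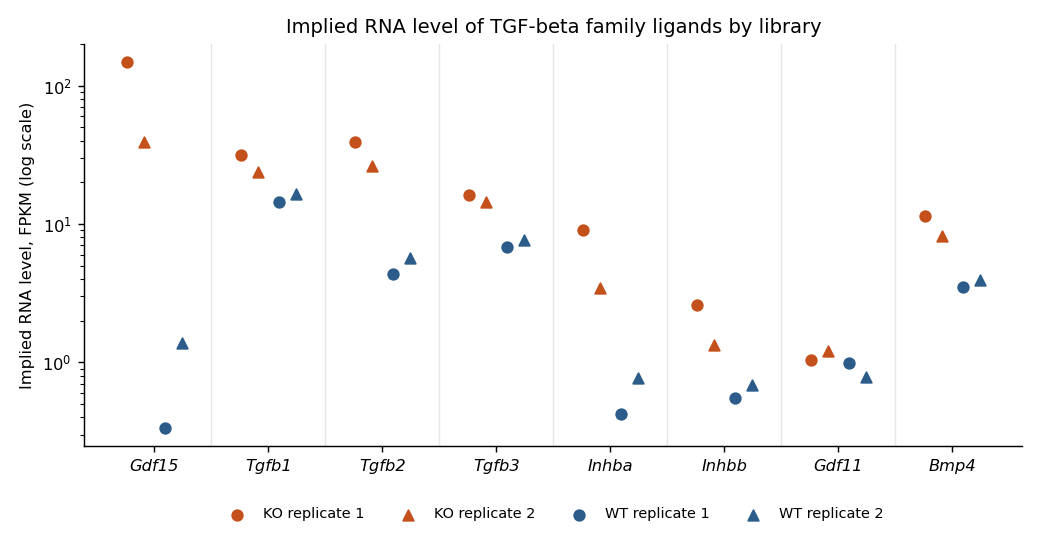
Implied RNA level in FPKM on a log scale, for the 8 ligand genes with a value in all 4 libraries, with KO libraries (orange) left of WT libraries (blue). In each of the 8 genes both KO points lie above both WT points, by the most in Gdf15 and the least in Gdf11.

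Mstn encodes myostatin, an inhibitor of skeletal muscle growth, and Gdf11 encodes a close relative. Mstn (chromosome 1, 53061640 to 53068079) had footprint levels of 1.15 and 5.59 FPKM in KO hearts, against 0 and 0.562 FPKM in WT hearts. It passed the filter on low values through its KO libraries alone, so its separation was built in, and its adjusted p was 0.323. The log2 change of 1.59 (SE 0.72) became 2.40 with KO replicate 1 left out and 0.78 with KO replicate 2 left out. An implied RNA level could be formed for Mstn in 2 libraries, at 0.0536 FPKM in KO replicate 1 and 0.131 FPKM in WT replicate 2. Skeletal muscle markers summed over 8 genes to 17.4 and 9.31 FPKM in KO hearts, against 3.44 and 10.3 FPKM in WT hearts, and Myod1 was listed at 0 in all libraries. Gdf11 (chromosome 10, 128880524 to 128891718) had footprint levels of 0.273 and 2.75 FPKM in KO hearts, against 1.17 and 1.10 FPKM in WT hearts. The WT libraries lay between the KO libraries, and the log2 change was 0.03 (SE 0.69, adjusted p = 0.981). Its log2 RNA change was 0.36 (SE 0.39, adjusted p = 0.566), the smallest of the 8, and its footprint change was -0.19 after median-ratio scaling.

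Bmp4, a ligand with roles in heart formation and vessels (chromosome 14, 46383525 to 46390669), had footprint levels of 91.2 and 151 FPKM in KO hearts, against 64.1 and 23.9 FPKM in WT hearts. The groups did not overlap, though the WT libraries were spread widely, and the log2 change was 1.56 (SE 0.53, 2.94-fold, adjusted p = 0.244). Leaving out WT replicate 1 gave 2.25, and leaving out WT replicate 2 gave 0.86. The implied RNA level of Bmp4 rose, with 11.4 and 8.25 FPKM in KO hearts against 3.49 and 3.91 FPKM in WT hearts (log2 change 1.40, SE 0.27, 2.63-fold, adjusted p = 0.042). The call was lost without KO replicate 1 (adjusted p = 0.055) and without WT replicate 1 (0.065). A ratio of footprints to RNA of 7.97 and 18.4 in KO hearts and of 18.4 and 6.13 in WT hearts gave no separation in TE. Of the annotated genes that overlap the Bmp4 locus, Gm15222 had 1.79 FPKM of footprints in KO replicate 2 and was at 0 in the other libraries, and Gm15217 was at 0 in all 4.

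Bmp10 (chromosome 6, 87428994 to 87434512) was decided by 1 library. Its footprint level was 111.7 FPKM in KO replicate 1 and 0 in KO replicate 2, against 0.381 and 1.07 FPKM in WT hearts. The log2 change was 2.65 (SE 2.06, adjusted p = 0.525), and without KO replicate 1 it was -0.76. Its deposited TE in KO replicate 1 was 8431, from an implied RNA level of 0.0133 FPKM, and 8 of 14926 genes had a higher TE in that library. Of 7 genes followed as atrial markers, Myl7, Myl4, Sln and Stard10 were highest in footprints in the same KO library, and Nppa, Dkk3 and Kcnj3 were not. In implied RNA Myl4 was again highest there, but Myl7, Sln and Stard10 were highest in WT replicate 2. Kcnj3 fell in RNA (68.8-fold, log2 SE 1.19, adjusted p = 0.043), to 0.0358 and 0.615 FPKM in KO hearts from 12.3 and 8.48 FPKM in WT hearts. The size of that fold depends on the very low KO values, and its footprint change did not pass (5.79-fold lower, adjusted p = 0.208). Nppa rose in footprints (adjusted p = 0.041) and RNA (adjusted p = 0.012). Myl7, the atrial myosin light chain, had footprint levels of 312 and 47.6 FPKM in KO hearts, against 59.8 and 162 FPKM in WT hearts. Myl4 had 369 and 59.4 FPKM in KO hearts, against 41.3 and 136 FPKM in WT hearts, and Sln, sarcolipin, had 9.48 and 1.58 FPKM in KO hearts, against 1.83 and 6.44 FPKM in WT hearts. WT replicate 2 was the higher WT library for Bmp10, Myl7, Myl4 and Sln. Dkk3 had 113 and 159 FPKM in KO hearts, against 18.4 and 37.01 FPKM in WT hearts, and Kcnj3, a potassium channel gene of the atria, had 12.7 and 3.49 FPKM in KO hearts, against 70.2 and 28.02 FPKM in WT hearts. Stard10 had 18.6 and 11.3 FPKM in KO hearts, against 14.6 and 13.3 FPKM in WT hearts. The atrial list summed to 22808 and 64200 FPKM in KO hearts, against 771 and 1606 FPKM in WT hearts, almost all of it Nppa in KO. The part of atrial tissue in the Bmp10 value was not tested.

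**Figure D3:**
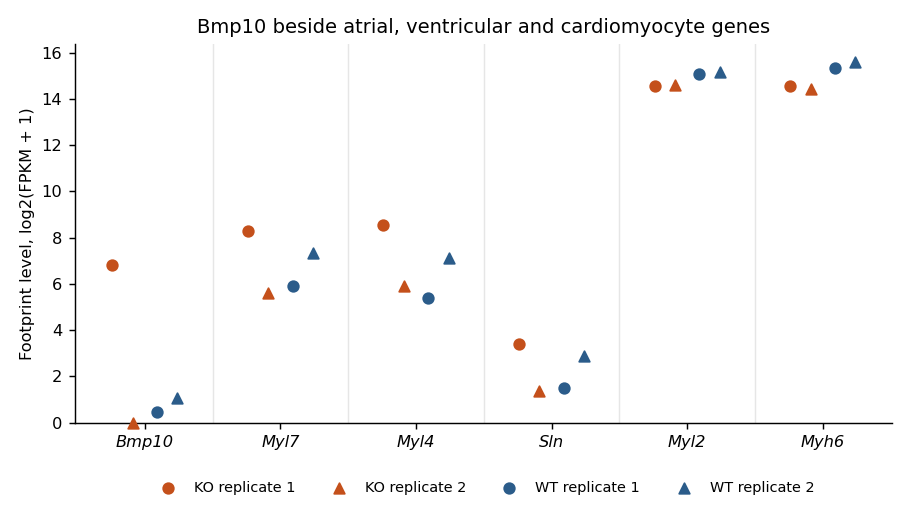
Footprint level, log2(FPKM + 1), of Bmp10 beside the atrial genes Myl7, Myl4 and Sln, the ventricular gene Myl2 and the cardiomyocyte gene Myh6, with KO libraries left of WT libraries. Bmp10, Myl7, Myl4 and Sln are each highest in KO replicate 1. Of the atrial markers not drawn, Stard10 was highest in that library too, and Nppa, Dkk3 and Kcnj3 were not.

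TE did not pass for any ligand gene, and the log2 changes lay between -0.92 and 0.87, with a median of -0.23 beside 0.15 for all genes. The SE of these changes limits what could be seen: it was 1.10 for Gdf15 and 0.51 for Tgfb2. TE was 2.35 and 3.84 in KO hearts against 3.18 and 3.0 in WT hearts for Tgfb1, and 1.42 and 12.2 in KO hearts against 5.89 and 5.26 in WT hearts for Inhba. The changes in the positive direction were led by Inhbb (0.791 and 2.15 in KO hearts, against 0.318 and 1.60 in WT hearts, log2 change 0.87, SE 0.95) and Tgfb3 (0.843 and 0.481 in KO hearts, against 0.510 and 0.304 in WT hearts, log2 change 0.69, SE 0.70). In both genes the groups overlapped. Gdf11 had a TE of 0.263 and 2.27 in KO hearts, against 1.19 and 1.42 in WT hearts (log2 change -0.75, SE 1.03). Within the KO group, footprints were higher in KO replicate 2 for 8 of 10 ligand genes, RNA for 1 of 8 and TE for 7 of 8. As TE is the ratio of footprints to RNA, its count follows in part from the other counts. For all genes the median log2 difference of KO replicate 2 minus KO replicate 1 was 0.25 in footprints, -0.056 in RNA and 0.36 in TE.

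**Figure D4:**
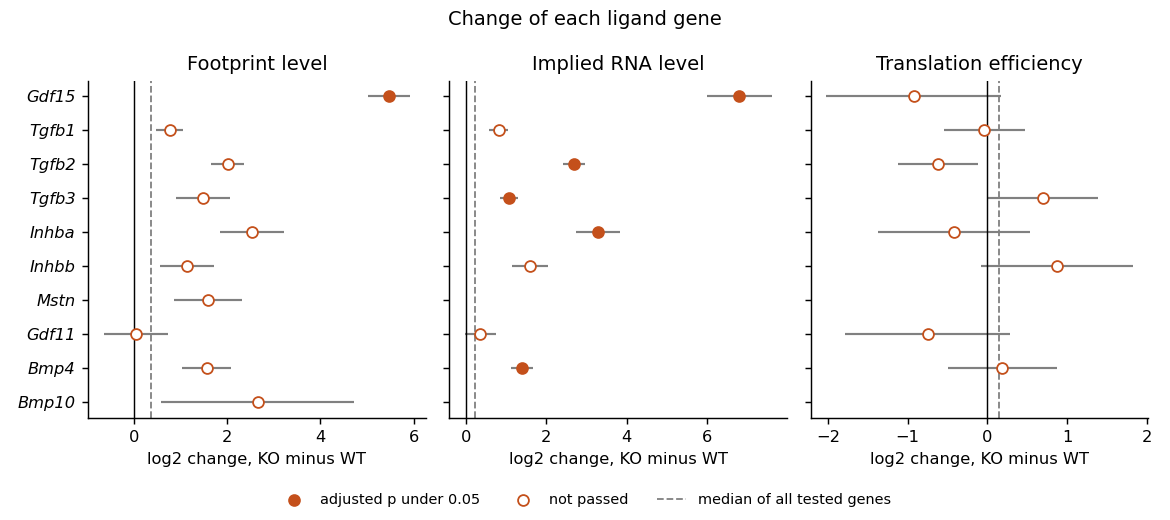
Log2 change (KO minus WT) with its SE as bars, for the footprint level, the implied RNA level and TE of each ligand gene, filled where the adjusted p was under 0.05, with the median of all tested genes as a dashed line. Footprints pass for Gdf15, RNA for Gdf15, Tgfb2, Tgfb3, Inhba and Bmp4, and TE for none; Mstn and Bmp10 have no RNA or TE point.

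By footprints, the order of mean levels in KO hearts was Gdf15, Bmp4, Tgfb1, Tgfb2, Bmp10, Inhba, Tgfb3, Mstn, Inhbb and Gdf11. The ranges of neighbours overlapped except between Bmp4 and Tgfb1, Tgfb1 and Tgfb2, and Tgfb3 and Mstn. In WT hearts the order was Tgfb1, Bmp4, Tgfb2, Inhba, Gdf15, Tgfb3, Gdf11, Bmp10, Inhbb and Mstn, with ranges that overlapped for Tgfb1 and Bmp4, for Inhba, Gdf15 and Tgfb3, and for Bmp10, Inhbb and Mstn.

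Other ligands of the family were followed in a list of 23 genes, of which Gdf1, Bmp8b, Lefty2 and Amh were at 0 in all libraries. None of 12 tested passed in footprints and 2 of 8 rose in RNA, with median log2 changes of 0.69 and 0.88. Separated upward were 7 of 12 and 5 of 8, beside 39.5% and 44.2% of all genes tested. Over all genes, 0.253% passed as higher in footprints and 4.2% in RNA. Gdf6, a BMP-type ligand, had footprint levels of 21.7 and 87.4 FPKM in KO hearts, against 1.22 and 2.15 FPKM in WT hearts (log2 change 4.08, SE 0.74, 16.9-fold, adjusted p = 0.124). Its RNA rose 18.4-fold (log2 change 4.2, SE 0.49, adjusted p = 0.019), with 11.0 and 4.33 FPKM in KO hearts against 0.381 and 0.370 FPKM in WT hearts. Bmp7 RNA rose 4.07-fold (adjusted p = 0.049), from 0.509 and 0.968 FPKM in WT hearts to 2.46 and 3.31 FPKM in KO hearts. Its footprint levels were 4.07 and 2.46 FPKM in KO hearts, against 2.41 and 1.76 FPKM in WT hearts, and did not pass (1.37-fold, adjusted p = 0.692). Bmp6 had footprint levels of 28.1 and 47.5 FPKM in KO hearts, against 10.3 and 11.0 FPKM in WT hearts (adjusted p = 0.184). Bmp2 and Gdf10 did not pass.

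Of 20 receptors and co-receptors, 15 were tested, and none passed in footprints. In RNA 1 rose and 1 fell, where 4.2% of all genes passed as higher and 1.53% as lower. The median log2 changes were 0.41 in footprints and -0.0039 in RNA. Bambi, a pseudoreceptor that blocks signalling, rose 3.63-fold in RNA (adjusted p = 0.032). Ret, the co-receptor of GDF15, fell 6.89-fold in RNA, with 0.582 and 0.434 FPKM in KO hearts against 3.7 and 3.24 FPKM in WT hearts (adjusted p = 0.023). Its footprint levels overlapped, at 1.82 and 5.45 FPKM in KO hearts and 4.43 and 4.004 FPKM in WT hearts (log2 change -0.29, adjusted p = 0.834). Gfral, the receptor of GDF15, was listed at 0 in all 4 libraries. Tgfbr1 had footprint levels of 114 and 159 FPKM in KO hearts, against 59.2 and 55.4 FPKM in WT hearts (adjusted p = 0.171), and Acvr1 and Bmpr2 did not pass either.

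Among 19 tested genes of ligand processing and latency, 1 rose in footprints, and in RNA 1 rose and 1 fell. Over all genes, 0.253% passed as higher in footprints, and in RNA 4.2% passed as higher and 1.53% as lower. Thbs1, which encodes thrombospondin 1, an activator of latent TGF-beta, rose in footprints to 423 and 668 FPKM in KO hearts, against 89.03 and 89.6 FPKM in WT hearts (5.89-fold, adjusted p = 0.041), and its RNA did not pass (adjusted p = 0.106). Ltbp2, a latent TGF-beta binding protein family member, rose 11.8-fold in RNA (adjusted p = 0.014), with footprint levels of 137 and 340 FPKM in KO hearts and 15.5 and 30.4 FPKM in WT hearts (adjusted p = 0.108). Ltbp1 fell 1.96-fold in RNA (adjusted p = 0.0495). Itgav, the alpha V integrin subunit, and the convertase Pcsk5 did not pass.

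Of 17 antagonists that bind ligands, 9 were tested for footprints with none called, and 1 of 8 rose in RNA. Over all genes tested for RNA, 4.2% passed as higher. Fstl3, which binds activins and myostatin, had footprint levels of 22.6 and 72.2 FPKM in KO hearts, against 2.19 and 2.85 FPKM in WT hearts (11.9-fold, adjusted p = 0.124). Its RNA rose 14.03-fold, with 29.2 and 12.4 FPKM in KO hearts against 0.724 and 2.54 FPKM in WT hearts (adjusted p = 0.033). Fst, follistatin, had 4.002 and 13.5 FPKM of footprints in KO hearts, against 0.435 and 1.32 FPKM in WT hearts (adjusted p = 0.232). Sost and Chrdl1 did not pass. The median log2 changes of the list were 1.57 in footprints and 0.43 in RNA.

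Target genes of SMAD2 and SMAD3 were higher in both KO libraries for 21 of 24 genes in footprints and 21 of 23 in RNA, with median log2 changes of 1.40 and 1.26. Over all genes 39.5% and 44.2% were separated in that way. Of these targets 2 rose in footprints and 9 in RNA, where 0.253% and 4.2% of all genes passed as higher. Ccn2, a matricellular protein gene, had footprint levels of 2402 and 5590 FPKM in KO hearts, against 253 and 251 FPKM in WT hearts (14.5-fold, adjusted p = 0.037), and its RNA rose 8.30-fold (adjusted p = 0.047). Tagln, an actin-binding protein gene of smooth muscle, rose 4.97-fold in footprints (adjusted p = 0.041) and 4.17-fold in RNA (adjusted p = 0.044). In RNA the matrix genes Lox (5.28-fold), Postn (4.38-fold), Loxl2 (3.41-fold) and Fn1 (2.39-fold) also rose, as did Tgif1, Pmepa1 and Ltbp2. Of 18 SMAD genes and regulators, none passed in footprints and 2 rose in RNA (Tgif1 and Pmepa1). Of 17 BMP target genes, none passed in footprints and 2 of 16 rose in RNA (Atoh8, 3.76-fold, and Bambi), and Smad6 and Smad7 did not pass.

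**Figure D5:**
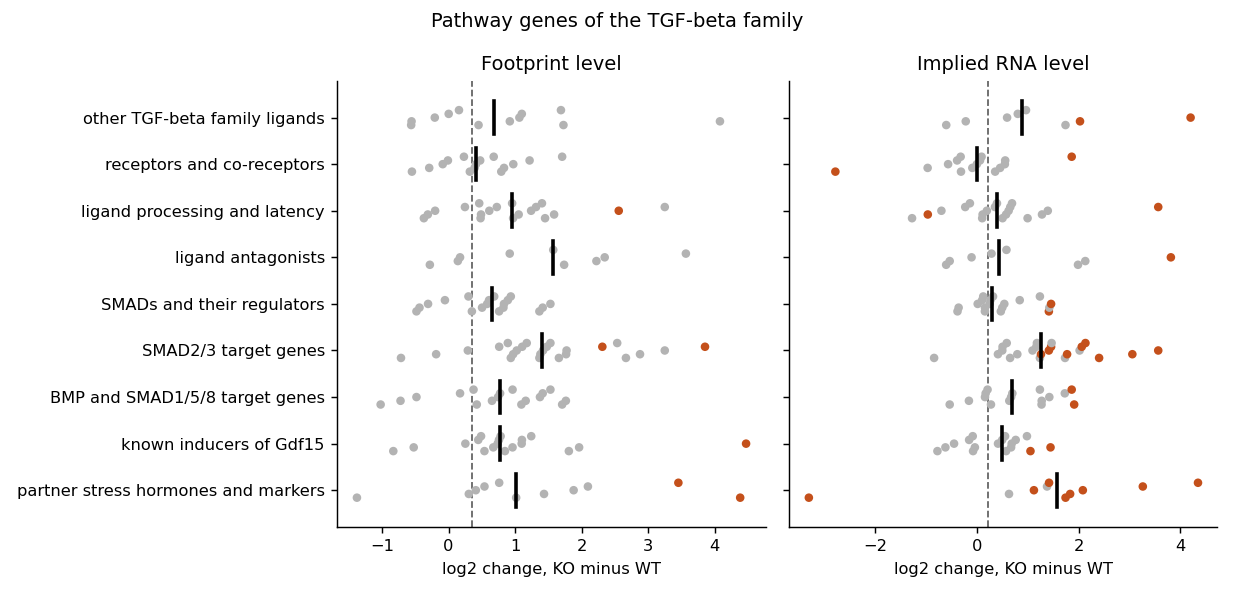
Log2 change (KO minus WT) of each tested gene in 9 lists, for the footprint level (left) and the implied RNA level (right), orange where the adjusted p was under 0.05, with the list median as a black bar and the median of all genes as a dashed line. The SMAD2/3 target genes have medians of 1.40 and 1.26, beside 0.36 and 0.22 for all genes.

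Gdf15 is known as a target of p53 and of the integrated stress response, in which ATF4 and CHOP drive transcription. Of 18 tested genes that encode its known inducers (Ddit3 counted on both its Ensembl genes), 1 rose in footprints and 2 of 17 in RNA. Over all genes, 0.253% rose in footprints and 4.2% in RNA. The median log2 changes of the inducer genes were 0.77 and 0.49. Ddit3, which encodes CHOP, stands on 2 Ensembl genes whose reads the counting may have split. One (ENSMUSG00000116429) rose 22.2-fold in footprints (adjusted p = 0.0043), to 574 and 597 FPKM in KO hearts against 23.4 and 27.6 FPKM in WT hearts. Its TE was listed as 0 in all libraries, so it had no implied RNA level. The other rose 2.72-fold in RNA (adjusted p = 0.034) and did not pass in footprints (2.14-fold, adjusted p = 0.356). Footprint levels of that other gene were 16.9 and 9.47 FPKM in KO hearts, against 4.04 and 7.12 FPKM in WT hearts. Trp53 RNA rose 2.07-fold (adjusted p = 0.0485). The inducer genes Egr1 (3.90-fold, adjusted p = 0.234), Creb3l1 (3.50-fold, adjusted p = 0.208) and Cebpb (2.37-fold, adjusted p = 0.276) did not pass in footprints or in RNA. Of the other genes of the p53 and integrated stress responses, 2 of 11 rose in footprints, 7 of 10 rose in RNA and 1 fell in RNA. Over all genes these shares were 0.253%, 4.2% and 1.53%. Cdkn1a, the p21 cell cycle inhibitor, rose 20.9-fold in footprints (adjusted p = 0.022) and 20.3-fold in RNA (adjusted p = 0.012). Eda2r rose in both measures, and Sesn2 (4.23-fold), Psat1, Mthfd2, Mdm2 and Ccng1 rose in RNA. Chac1, a target of ATF4, fell 9.89-fold in RNA (adjusted p = 0.023), and Fgf21 was at 0 in all libraries. Trib3, a pseudokinase gene induced by ATF4 and CHOP, did not pass (3.68-fold in footprints, adjusted p = 0.213).

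The genes whose 4 footprint values lay nearest to those of Gdf15, by Euclidean distance between centred log2(FPKM + 1) values over 11193 genes and 4 libraries, were Ano3 (distance 0.749), Nppa (0.966), Cdkn1a (1.11), Ddit3 (1.21, ENSMUSG00000116429) and Fam180a (1.3). Nppa, the atrial natriuretic peptide gene, had footprint levels of 21973 and 63917 FPKM in KO hearts, against 565 and 1223 FPKM in WT hearts. Fam180a was listed at 0 in both WT libraries. It passed the filter on low values through its KO libraries alone, so its separation was built in. The 11193 genes searched were tested genes with a mean of at least 5 FPKM in 1 group and a plain symbol, which leaves out predicted genes, pseudogenes and small RNA genes.

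Markers of cell types in the heart were followed too. The 8 cardiomyocyte markers summed to 138043 and 144530 FPKM of footprints in KO hearts, against 212181 and 257065 FPKM in WT hearts, and 6 of 8 were lower in both KO libraries, as were 12.1% of all genes tested. No cardiomyocyte marker passed in footprints or RNA, and no fibroblast or macrophage marker passed in footprints. The 8 fibroblast markers summed to 16286 and 20042 FPKM of footprints in KO hearts, against 7933 and 7043 FPKM in WT hearts. In both KO libraries 7 of 8 were higher in footprints and 2 of 8 in RNA, beside 39.5% and 44.2% of all genes tested. In RNA those fibroblast markers summed to 1168 and 796 FPKM in KO hearts, against 651 and 845 FPKM in WT hearts. The 7 macrophage markers summed in RNA to 247 and 195 FPKM in KO hearts, against 106 and 101 FPKM in WT hearts. In RNA 1 fibroblast marker rose (Tcf21, 3.19-fold, adjusted p = 0.029), as did 2 macrophage markers, beside 4.2% of all genes tested. Fewer cells of a type and less RNA per cell cannot be told apart in these whole-tissue libraries, and the part of these markers in the ligand changes was not tested.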

How the data were processed

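Footprint levels in FPKM were deposited by the authors as 1 table of 55382 genes by 4 libraries, and TE as a second table that holds a ratio per gene and library. Per the submitters' processing notes, reads were handled with STAR 2.7.4a, Bowtie 1.3.1, Cufflinks 2.2.1, HTSeq 0.13.5, FastQC 0.11.9 and cutadapt 3.7 on GRCm38 (mm10); the notes list no settings and do not say whether counting used strand. The deposited FPKM were divided by the deposited TE ratio to give the implied RNA level, and 59296 of 59296 quotients had no more than 6 significant digits (relative tolerance 1e-10), as a deposited FPKM would. A TE of 0 beside a footprint level above 0, found for 1516 to 1987 genes per library, was treated as missing. As a ratio, TE carries the error of both parts. The RNA libraries themselves were not analysed here.

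The test took the 15031 genes that reached 1 FPKM in 2 or more libraries, and RNA and TE in the 12529 of them with a TE in all libraries. Values were compared as log2(FPKM + 1), log2 RNA and log2 TE with limma 3.58.1 in R 4.3.3, with a mean trend in the spread and Benjamini-Hochberg adjustment. The smallest p of an exact permutation test with 2 libraries against 2 is 0.333, so none is given. In a simulation of the footprint comparison over 15031 genes, 62 of 100 genes changed by a log2 of 2 were called. Of those changed by 4, 100 of 100 were called, as were 8 unchanged genes. In the measured footprints limma did not call Gdf6 (log2 change 4.08, adjusted p = 0.124), Myh7 (4.03, 0.218) or Fam180a (4.33, 0.111). It did call Ccn2 (3.86, 0.037), Cdkn1a (4.39, 0.022) and 1 Ddit3 gene (4.47, 0.0043). The simulation gave each gene the typical spread of genes at a similar mean level, not its own measured spread. Its recovery therefore does not cover genes with a wider spread. Groups came from the titles. Same-numbered libraries did not deviate together (correlations -0.056, -0.22 and -0.018 for footprints, RNA and TE).

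The 10 ligand genes and the lists were chosen with earlier results of these data known. Named besides are Nat10, list genes past the threshold in any measure, per list the 4 largest footprint changes among genes with a mean of at least 5 FPKM in 1 group, and the 5 genes nearest to Gdf15; genes named as at 0 or as markers were chosen after their values were seen. Lists of ventricular, endothelial, smooth muscle, epicardial, erythroid and lymphocyte markers were also followed. A gene that this rule names among the target genes is not reported here. Promoters came from RefSeq (GRCm38.p6).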

Additional observations from a re-analysis of the deposited data

How the results depend on the processing

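The footprint comparison called 57 genes, and 0 with any 1 library left out (where a lone library is assumed to vary like the other group), 143 with a replicate block, 221 with named genes only, 34 with a pseudocount of 0.1 and 8 with no filter on low values. Of the ligand genes, 1 was called in footprints, 0 with any 1 library left out, 2 with named genes only (Gdf15 and Tgfb2) and 0 with no filter. RNA called 718 genes, 704 to 3742 with 1 library left out (3742 without KO replicate 2 and 1160 without WT replicate 2) and 1429 with the replicate block; the ligand genes called were 5, with 3 to 7 when 1 library was left out and 3 under median-ratio scaling. TE called 0 genes (759 at an unadjusted p under 0.05 by limma), 0 to 33 with 1 library left out (33 without WT replicate 1 and 8 without WT replicate 2), 178 with the replicate block, 1 with named genes only and 1 with RNA of at least 1 FPKM in 2 libraries, and no ligand gene under any of these. A crossed replicate block, chosen after seeing the data, called 92 genes in footprints and 3241 in RNA. The replicate numbers are shared only as numbers.

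Of the log2 changes of single ligand genes, 14 changed sign. With 1 library left out, the footprint change ran from -0.76 (without KO replicate 1) to 6.06 for Bmp10 and from -0.75 (without KO replicate 2) to 0.81 for Gdf11, which was also -0.19 after median-ratio scaling and -0.26 with a pseudocount of 0.1. The TE change ran from -2.36 to 0.51 for Gdf15 (above 0 without KO replicate 1, and 0.18 without WT replicate 1), from -0.39 to 0.31 for Tgfb1, from -1.97 to 1.13 for Inhba, from -0.29 to 2.04 for Inhbb, from -0.60 to 0.98 for Bmp4 (-0.41 without KO replicate 2) and from -2.30 to 0.80 for Gdf11. With 1 FPKM added to both parts of TE it was 0.042 for Gdf15 and 0.46 for Inhba. The other comparisons of ligand genes kept direction: 228 stayed on the same side of the threshold, 12 lost and 6 gained it. Nat10 kept its direction and its side in all 30. Apart from the fewer libraries or genes of a setting, the cause was not tested.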

Other observations

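Markers not described above also differed between libraries. The 7 endothelial markers summed to 2044 and 2938 FPKM of footprints in KO hearts, against 1780 and 1530 FPKM in WT hearts. In both KO libraries 4 of 7 were higher, as were 39.5% of all genes tested, with none called. The 7 markers of smooth muscle and pericytes summed to 831 and 1334 FPKM in KO hearts, against 749 and 559 FPKM in WT hearts. Of these, 5 of 7 were higher in both KO libraries, beside the same 39.5%, and none was called. Median log2 footprint changes were 0.55 for the endothelial list and 0.46 for this list, beside 0.36 for all genes. The 6 epicardial markers summed to 83.7 and 108 FPKM in KO hearts, against 33.6 and 23.7 FPKM in WT hearts. Ventricular markers summed to 45444 and 46499 FPKM in KO hearts, against 59576 and 59693 FPKM in WT hearts. Erythroid markers summed to 1233 and 619 FPKM in KO hearts, against 1036 and 832 FPKM in WT hearts, and lymphocyte markers to 23.4 and 9.83 FPKM in KO hearts, against 23.7 and 8.10 FPKM in WT hearts.

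Myh7, the fetal myosin heavy chain gene of the mouse ventricle, had footprint levels of 36.4 and 559 FPKM in KO hearts, against 9.78 and 6.31 FPKM in WT hearts, and did not pass (adjusted p = 0.218, limma). It was chosen after its values were seen. Smad6, an inhibitory SMAD gene, had 9.83 and 37.6 FPKM of footprints in KO hearts, against 6.32 and 7.02 FPKM in WT hearts.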
